A study of Homo sapiens with 6 samples.

Results

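The regions described here are the stretches bound by RNA polymerase II in the first 5 Mb of chromosome 1, at the tip of its short arm. HepG2 cells, a human liver tumour line, were studied as SHP-1 WT (CRISPR control, a clone made with a nontargeting guide) and SHP-1 KO (CRISPR knockout, a clone in which PTPN6, the gene of the tyrosine phosphatase SHP-1, was disrupted). Both were untreated, and each genotype stands for single-cell clones, so that clone and genotype cannot be told apart. Chromatin was precipitated with an antibody to RPB1, the largest subunit of RNA polymerase II, and with an antibody to RPB1 phosphorylated on Ser2 of its C-terminal repeats (phospho-Ser2 RPB1). There was 1 library per antibody and genotype, so no difference below has a replicate check or a test.

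A region counted as a member when it lay on chromosome 1 and ended at or before base 5000000 of hg38. The segment was chosen by results already seen in these lists, namely the regions that were in the SHP-1 WT lists and absent from the SHP-1 KO lists, so the missing shares below are descriptions of what chose it. The 4 lists hold 271336 regions, of which 1931 (0.712%) were members. They were 576 of 46045 WT RPB1 regions, 355 of 41605 KO RPB1 regions, 673 of 102674 WT phospho-Ser2 regions and 327 of 81012 KO phospho-Ser2 regions. A WT region was said to stay when a KO region of the same antibody overlapped it by at least 1 bp, and to be missing otherwise. Missing means not called in the KO list, not that polymerase was absent. The lists give no read counts, so depth is unknown.

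RNA polymerase II gathers at promoters, where RPB1 peaks are usually highest, and its C-terminal repeats gain Ser2 phosphorylation as it moves through the gene body, so phospho-Ser2 RPB1 is highest towards the ends of transcribed genes. The tip of chromosome 1p is rich in genes and in G and C bases. It carries genes of signalling, extracellular matrix, mitochondria and transcription, and the microRNA genes MIR200B, MIR200A, MIR429 and MIR551A.

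The strength of a region is its fold enrichment, the height at its summit over the local background. Of 11 liver genes checked (ALB, AFP, APOB and others), 9 had a promoter region in the WT RPB1 list and 8 in the KO list, against 2 and 1 of 7 genes of blood, connective tissue and vessel cells. PTPN6 itself had 3 WT and 1 KO RPB1 regions, with highest fold enrichments of 24.0 and 17.2, and 1 phospho-Ser2 region in each genotype; occupancy of the gene does not check the knockout of the protein.

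The sequences at the sites that carry the main observation are printed first. MEGF6 encodes a large secreted protein with many EGF-like repeats and lies on the minus strand at chr1:3487951-3611508. GENCODE gives it a full-length start at 3611508 and an inner start at 3531448, in the transcript ENST00000294599.8. The 250 bases before the full-length start are shown on the minus strand, with GC boxes (GGGCGG, or CCGCCC on the other strand) in capitals, because polymerase regions were absent around this start in both genotypes. The strongest missing WT RPB1 region had its summit at 3531589, which is 141 bases upstream of the inner start.
MEGF6 full-length start, chr1:3611509-3611758: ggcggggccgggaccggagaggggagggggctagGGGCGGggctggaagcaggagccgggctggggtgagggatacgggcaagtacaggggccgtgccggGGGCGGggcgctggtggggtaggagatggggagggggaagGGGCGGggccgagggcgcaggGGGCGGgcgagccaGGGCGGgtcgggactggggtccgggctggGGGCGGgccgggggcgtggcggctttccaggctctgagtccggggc
The window held 6 GC boxes, and no CCAAT box (CCAAT or ATTGG) or TATA box (TATAAA or TTTATA). Of 35116 RefSeq promoter entries (GRCh38.p14), 42.6% had at least 1 GC box in the same 250 bases, 32.0% a CCAAT box and 10.7% a TATA box.

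MIR551A is a microRNA gene at chr1:3560695-3560790, inside a long intron of MEGF6 and on the same strand. It is shown with the mature microRNAs of the MIR200B, MIR200A and MIR429 cluster, from RefSeq, with the seed (bases 2 to 8) in capitals.
hsa-miR-551a: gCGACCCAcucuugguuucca
hsa-miR-200b-3p: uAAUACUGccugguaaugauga
hsa-miR-429: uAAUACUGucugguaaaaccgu
hsa-miR-200a-3p: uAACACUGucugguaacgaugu
The seeds of miR-200b-3p and miR-429 are the same, that of miR-200a-3p differs from them, and that of miR-551a is unlike all of these.

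The 4 windows of 151 bases around WT summits show other sites the results turn on, with the same capitals. They are the strongest missing phospho-Ser2 region of MEGF6, the strongest missing RPB1 region assigned to PLCH2, and, for contrast, the strongest RPB1 regions of the segment, at MRPL20 and SMIM1, which stayed.
MEGF6, phospho-Ser2, missing, chr1:3535542-3535692, minus strand: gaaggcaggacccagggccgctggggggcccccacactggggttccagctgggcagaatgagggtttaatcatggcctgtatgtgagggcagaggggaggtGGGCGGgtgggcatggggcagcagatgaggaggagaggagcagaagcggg
PLCH2, RPB1, missing, chr1:2496354-2496504, plus strand: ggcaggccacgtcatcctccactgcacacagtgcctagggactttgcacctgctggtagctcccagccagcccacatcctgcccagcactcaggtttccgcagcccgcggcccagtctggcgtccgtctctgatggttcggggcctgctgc
MRPL20, RPB1, staying, chr1:1407335-1407485, minus strand: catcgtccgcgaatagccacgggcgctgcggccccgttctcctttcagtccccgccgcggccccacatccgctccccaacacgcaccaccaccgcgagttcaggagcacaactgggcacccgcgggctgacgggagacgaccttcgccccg
SMIM1, RPB1, staying, chr1:3772294-3772444, plus strand: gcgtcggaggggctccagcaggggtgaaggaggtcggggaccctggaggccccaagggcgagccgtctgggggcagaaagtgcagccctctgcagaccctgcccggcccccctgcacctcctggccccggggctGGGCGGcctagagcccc
The G and C content of these windows was 66.2%, 66.2%, 70.9% and 75.5% in this order. These are picked windows, and over all WT RPB1 members the medians were alike, at 62.9% for missing and 62.9% for staying regions. A GC box lay in 64 of 362 missing and 66 of 214 staying RPB1 windows of the segment (17.7% and 30.8%). In the whole WT RPB1 list it was 20.0%. For phospho-Ser2 RPB1 there was no such difference, at 13.5% of missing and 13.5% of staying windows, beside 5.20% of the whole list. The CCAAT box went the other way for RPB1, in 34 of 362 missing and 12 of 214 staying windows (9.39% and 5.61%). In the whole WT RPB1 list it was 12.1%. The whole lists were not split into missing and staying windows, so these contrasts have no background. Staying RPB1 members also lay nearer to gene starts, at a median of 1208 bases against 2473 for missing ones. The part of this in the contrasts was not tested.

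MEGF6 had no region of either antibody left inside its body in SHP-1 KO. In SHP-1 WT, 43 RPB1 regions overlapped the gene body and covered 36.8% of it, and 35 phospho-Ser2 regions covered 58.5%. In SHP-1 KO the number was 0 for both antibodies. The lists do not give the DNA copy number of the stretch in either clone, and it was not tested. The authors' annotation, which names the nearest gene start, split these regions between MEGF6 and the MIR551A inside it. Of 16 WT RPB1 regions given to MEGF6, 15 were missing, and the 1 that stayed (chr1:3483238-3484173, fold enrichment 6.59 in WT and 3.23 in KO) lay past the end of the gene. All 28 WT RPB1 regions given to MIR551A were missing. For phospho-Ser2 RPB1, all 24 regions of MEGF6 and all 11 of MIR551A were missing.

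The strongest missing RPB1 region of the segment, chr1:3523991-3540425, was 16435 bases long around the inner start of MEGF6, and 28.5-fold enriched, at a −log10 q-value of 74.1. It was annotated as promoter. The strongest phospho-Ser2 region of the segment, chr1:3520670-3557494, was 36825 bases long and overlapped it, 33.5-fold enriched at a −log10 q-value of 159. That enrichment was above 99.985% of the WT phospho-Ser2 list. Its summit lay 4169 bases upstream of the inner start.

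The next strongest missing RPB1 region, chr1:3573763-3576322 with a fold enrichment of 20.8, was the one nearest to the full-length start inside the gene, and from it to the inner start the WT regions followed each other closely. No list had a region within 3 kb of the full-length start. The MIR551A hairpin itself was touched by 1 WT RPB1 region (chr1:3560755-3561303, fold enrichment 7.05, covering 37.5% of it) and by 1 WT phospho-Ser2 region (chr1:3559963-3561208, fold enrichment 3.58, covering 100% of it). The other end of the gene carried a further strong missing phospho-Ser2 region, chr1:3485866-3489804, with a fold enrichment of 14.8.

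**Figure D1:**
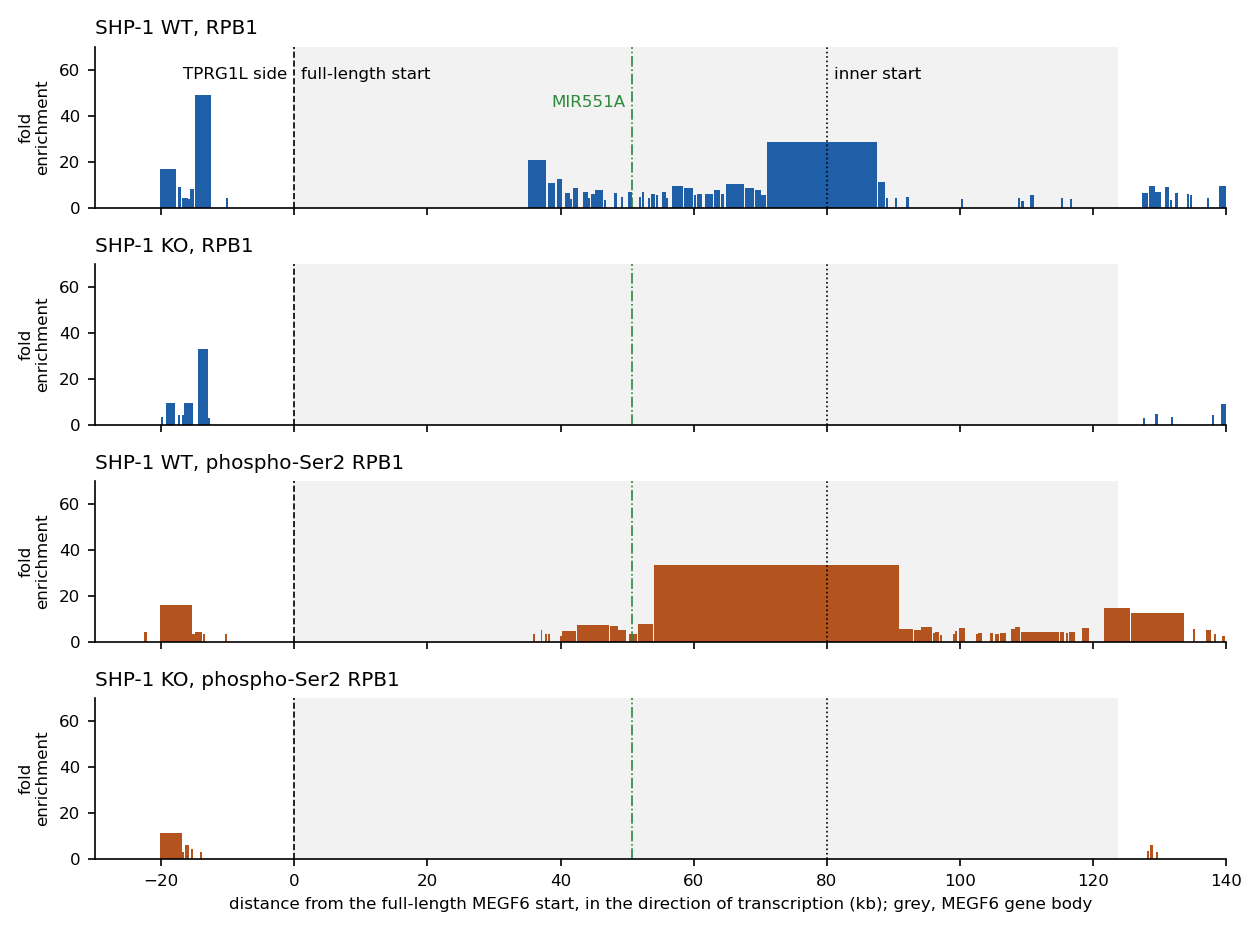
Regions around MEGF6 by distance from its full-length start in the direction of transcription (kb, x axis), drawn as bars as wide as the region and as high as its fold enrichment (y axis), for SHP-1 WT and SHP-1 KO and for RPB1 and phospho-Ser2 RPB1. The grey gene body holds 43 and 35 WT regions and 0 KO regions, while TPRG1L, left of the start, keeps regions in all 4 lists.

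Along the chromosome, the missing RPB1 regions at MEGF6 formed a run of 44 consecutive WT regions from 3494725 to 3621833, with fold enrichments from 2.96 to 28.5 and a median of 6.01. It was the longest of 9344 such runs in the WT RPB1 list, and the next longest held 18 regions, on chromosome 19. The stretch of 140 kb between the KO RPB1 regions on either side (ending at 3484011 and starting at 3624203) held 44 WT RPB1 and 36 WT phospho-Ser2 regions and no KO region of either antibody. The phospho-Ser2 run at MEGF6 held 37 regions, from 3485866 to 3625201. It ranked 10 among 17127 runs, the longest of which held 109 regions, on chromosome 15.

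The neighbours of MEGF6 kept some of their regions in SHP-1 KO. TPRG1L, on one side, had 6 WT RPB1 regions, of which 5 stayed, and its promoter region had a fold enrichment of 49.3 in WT and 33.3 in KO. Of its 5 WT phospho-Ser2 regions 3 were missing, and 2 of these belonged to the run at MEGF6. ARHGEF16, a guanine nucleotide exchange factor on the other side, had 22 WT RPB1 regions, of which 16 were missing, and 20 WT phospho-Ser2 regions, of which 14 were missing. Its strongest phospho-Ser2 region stayed, with fold enrichments of 17.0 and 13.7.

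PLCH2 encodes a phospholipase C of the eta class, which cleaves phosphoinositides, and lies on the plus strand at chr1:2425980-2505532. All 6 of its WT RPB1 regions were missing and the KO list assigned none to it. They were weak, with fold enrichments of 5.51, 3.50, 7.84, 4.46, 5.51 and 7.01 from the first to the last along the gene, and none lay within 3 kb of the 6 transcript starts farthest upstream. Its only WT phospho-Ser2 region, chr1:2504586-2504814 with a fold enrichment of 3.56, was missing too. A KO phospho-Ser2 region assigned to PLCH2 (chr1:2505448-2506050, fold enrichment 4.50) overlapped a WT region that the annotation gives to PANK4, at the end of the gene.

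Over the segment, 362 of 576 WT RPB1 regions were missing (62.8%, 95% Wilson interval 58.8 to 66.7%), beside 38.1% of the whole WT RPB1 list. Of WT phospho-Ser2 regions, 444 of 673 were missing (66.0%, 62.3 to 69.5%), beside 47.8% of the whole list. The intervals cover counting error only, and neighbouring regions of 1 library are not independent. Without the run at MEGF6 the shares were 59.8% and 64.0%. The reverse was less frequent, since 46 of 355 KO RPB1 regions (13.0%) and 37 of 327 KO phospho-Ser2 regions (11.3%) overlapped no WT region, beside 25.1% and 30.1% of the whole KO lists. In covered bases, the KO regions held 271 kb against 535 kb in WT for RPB1 and 203 kb against 537 kb for phospho-Ser2 RPB1, ratios of 0.508 and 0.379, beside 0.841 and 0.808 over the whole lists.

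The segment stood above most other windows of its length in the RPB1 list. Among 124 fixed windows of 5 Mb with at least 100 WT RPB1 regions, its missing share was the highest, the next being 54.4% in the window of 10 to 15 Mb on the same chromosome, and the median was 39.9%. For phospho-Ser2 RPB1 it ranked 18 of 355 windows, with a median of 47.6% and a highest value of 84.4% on chromosome 15. From 5 to 10 Mb of chromosome 1 the missing shares were 51.1% and 63.9%. The first 5 Mb of 13 other chromosomes with at least 50 WT RPB1 regions lost 28.0 to 49.2%. For phospho-Ser2 RPB1, 16 other chromosomes gave 26.3 to 63.6%, the highest on chromosome 5, so the segment and chromosome 5 were close to each other.

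**Figure D2:**
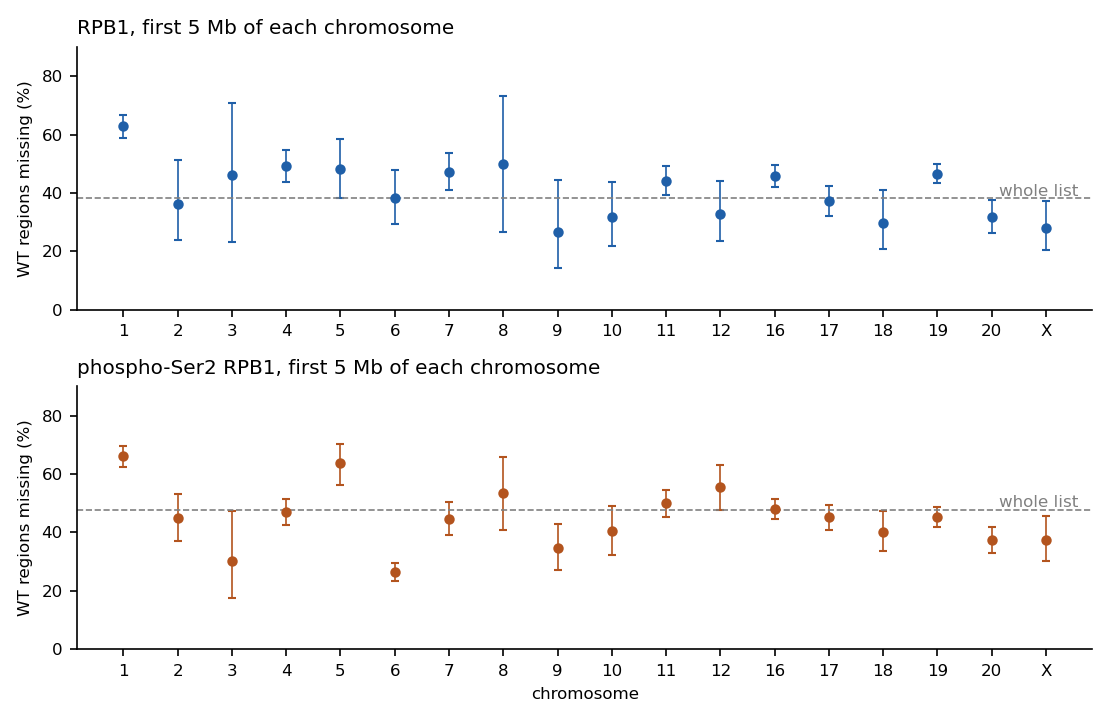
Share of WT regions missing from the KO list (%, y axis) in the first 5 Mb of each chromosome drawn (x axis), with 95% Wilson intervals as bars and the whole-list share as a dashed line. Chromosome 1 is the highest point in both panels, at 62.8% for RPB1 and 66.0% for phospho-Ser2 RPB1, where chromosome 5 reaches 63.6%.

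Weak regions went missing more often than strong ones, here and elsewhere. Of WT RPB1 regions with a fold enrichment below 5, 86.6% of 216 were missing, beside 65.0% over the whole list. The shares were 68.3% of 243 from 5 to below 10, beside 38.0%, and 7.69% of 117 at 10 or more, beside 1.26%. For phospho-Ser2 RPB1 they were 80.1% of 346 below 4, beside 60.4%, 64.1% of 231 from 4 to below 6, beside 35.6%, and 19.8% of 96 at 6 or more, beside 3.82%. The segment was thus above the whole list in every class. Median fold enrichments of the WT lists were alike, at 5.51 in the segment and 5.51 in the whole list for RPB1, and at 3.87 and 3.69 for phospho-Ser2 RPB1.

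**Figure D3:**
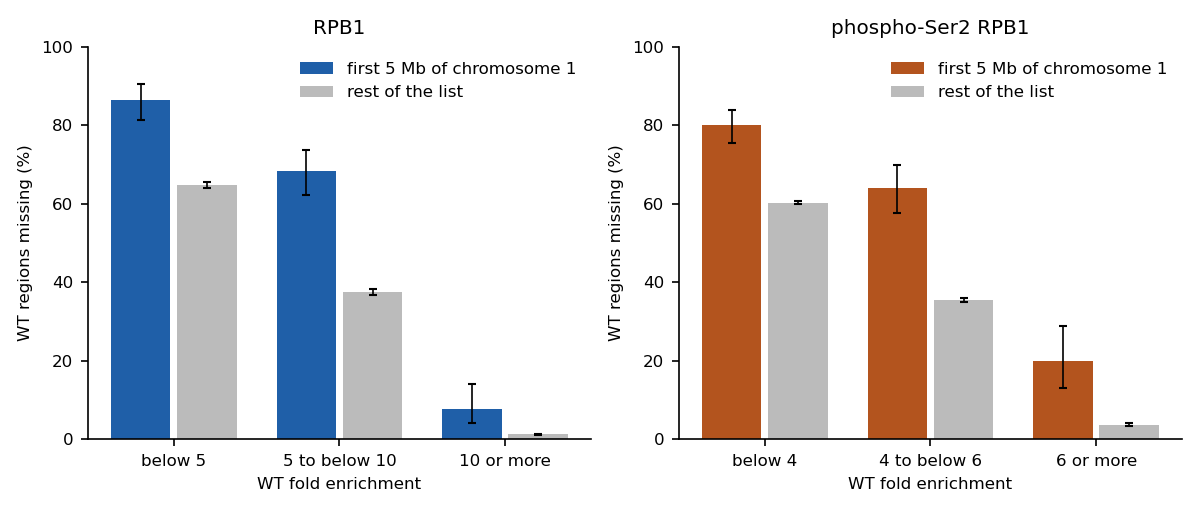
Share of WT regions missing (%, y axis) by class of WT fold enrichment (x axis) in the segment and in the rest of each list, with 95% Wilson intervals. In the strongest RPB1 class 7.69% of the segment's regions are missing, and in the strongest phospho-Ser2 class 19.8%.

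Of the 9 RPB1 regions at 10 or more that were missing, 6 were in the MEGF6 and MIR551A stretch. The other 3 were annotated as promoter regions, of FNDC10 (chr1:1599480-1600450, fold enrichment 11.5), SCNN1D (chr1:1283033-1284033, 10.4) and MMEL1 (chr1:2590733-2591940, 10.0). SCNN1D encodes the delta subunit of an epithelial sodium channel, and MMEL1 a membrane metalloendopeptidase. The tenth strongest missing region, annotated as promoter of MXRA8, was at 9.61. By the GENCODE gene bounds only the FNDC10 region covered the outer start of its gene. The regions of SCNN1D and MXRA8 lay inside the gene, and that of MMEL1 lay at its far end. Among phospho-Ser2 regions, those missing after the 2 of MEGF6 reached only 8.13, at ATAD3A.

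Promoter regions of the segment went missing less often than intronic ones. Of WT RPB1 promoter regions 103 of 202 were missing (51.0%), beside 23.5% in the whole list, and of intronic regions 154 of 205 (75.1%), beside 54.5%. Of WT phospho-Ser2 promoter regions 137 of 225 were missing (60.9%), beside 37.9%, and of intronic regions 205 of 271 (75.6%), beside 57.0%. Of regions annotated as 3' UTR, 24 of 36 were missing for RPB1 (66.7%), beside 38.7%, and 22 of 50 for phospho-Ser2 RPB1, beside 35.7%.

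The regions that stayed were mostly lower in SHP-1 KO. At 214 staying RPB1 regions the median ratio of KO to WT fold enrichment was 0.725 (95% interval of the median 0.678 to 0.770). Over the whole list it was 0.864. In the segment 167 ratios were below 1 (78.0%), beside 64.2% over the whole list. At 229 staying phospho-Ser2 regions the median ratio was 0.898 (0.824 to 0.956), beside 1.02. There 146 ratios were below 1 (63.8%), beside 47.3% over the whole list. The 5 strongest WT RPB1 regions all stayed and were at promoters. Over the whole WT RPB1 list only 1.26% of regions at 10 or more were missing. MRPL20, a protein of the mitochondrial ribosome, had 72.5 in WT and 42.1 in KO, SMIM1, a red cell membrane protein, 70.2 and 44.3, and PEX10, a peroxisome assembly factor, 68.2 and 54.4. HES4, a transcriptional repressor, had 64.7 and 31.0, and LINC01770 had 60.4 and 35.6. All 5 were lower in KO, but they were picked for a high WT value, which by itself favours a lower KO value.

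**Figure D4:**
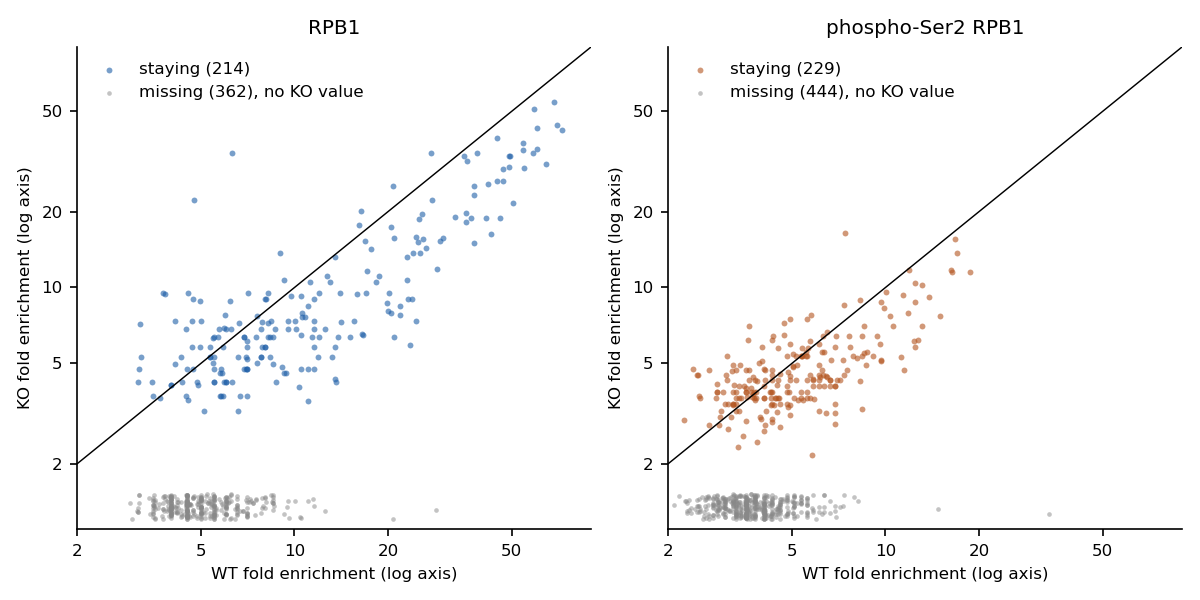
Fold enrichment of each WT region of the segment (x axis, log) against that of the strongest KO region overlapping it (y axis, log), with missing regions as grey points at the bottom, where they have no KO value and their height is arbitrary. Most staying points lie below the line of equal values, 167 of 214 for RPB1 and 146 of 229 for phospho-Ser2 RPB1. These are 78.0% and 63.8%, beside 64.2% and 47.3% over the whole lists.

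In all, 95 genes were assigned at least 1 region in the segment. For RPB1, 92 had a WT region, and every one was missing at 15 (16.3%), beside 10.5% of genes over the whole list, some at 59 and none at 18. These counts follow the gene labels. KLHL17 is among the 15, though a KO RPB1 region covered its start (chr1:960246-961157, fold enrichment 10.6). It overlapped a WT region assigned to another gene. For phospho-Ser2 RPB1, 80 had a WT region, with every one missing at 19 (23.8%), beside 19.6%, some at 50 and none at 11. Of 78 genes with WT regions of both antibodies, 5 lost every region of both. They were MIR551A, PLCH2, FNDC10, TP73-AS1 and CPTP, which encodes a ceramide phosphate carrier. Of the same 78, 8 lost none of either, namely TNFRSF4, B3GALT6, MIR6727, TAS1R3, MRPL20, MRPL20-AS1, LINC01770 and CDK11A. The matching shares over the whole lists were not computed, so these 2 counts have no background. The names follow the nearest gene start, and the regions assigned to TNFRSF4 lay outside that gene. Genes that lost none had 1 to 3 WT regions, and of genes with 5 or more WT regions 0 of 47 kept them all for RPB1 and 0 of 45 for phospho-Ser2 RPB1, beside 196 of 3013 and 314 of 6341 over the whole lists.

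**Figure D5:**
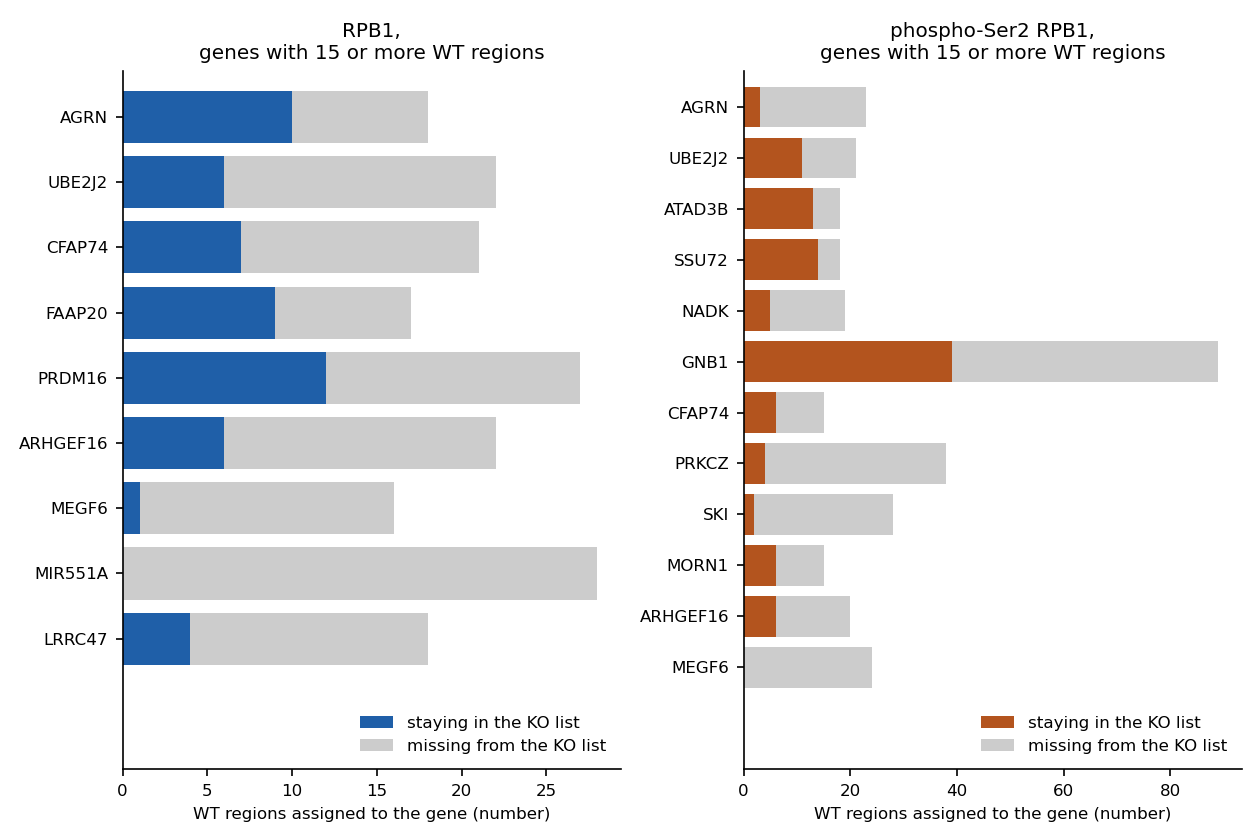
Number of WT regions (x axis) staying in or missing from the KO list, by assigned gene in order along the chromosome (y axis), for genes with 15 or more WT regions. MIR551A has 28 of 28 RPB1 regions missing and MEGF6 24 of 24 phospho-Ser2 regions, and GNB1 has 39 of 89 phospho-Ser2 regions staying.

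The gene lists that follow stand beside missing shares of 62.8% (RPB1) and 66.0% (phospho-Ser2 RPB1) in the segment and 38.1% and 47.8% over the whole lists, and no list was tested. Counts of KO regions without a WT counterpart stand beside 13.0% and 11.3% in the segment and 25.1% and 30.1% over the whole KO lists. Among signalling and receptor genes, 31 of 48 WT RPB1 regions and 81 of 91 WT phospho-Ser2 regions were missing (64.6% and 89.0%). Of the latter, PRKCZ gave 34 and SKI 26. PRKCZ encodes the atypical protein kinase C zeta and spans chr1:2050411-2185395 on the plus strand. All 10 WT RPB1 regions assigned to it were missing, with fold enrichments from 3.00 to 7.90, and so were 34 of its 38 WT phospho-Ser2 regions. Its RPB1 regions lay in a run of 16 missing RPB1 regions from 2057178 to 2186801 that reached into PRKCZ-AS1, the third longest of the list. The region at the first start of PRKCZ, chr1:2049039-2051676, is assigned to LOC105378591 and stayed, with 48.9 in WT and 30.1 in KO. The KO list held 1 RPB1 region assigned to PRKCZ, without a WT counterpart and with a fold enrichment of 3.65. The gene thus kept RPB1 at its start and none of the WT RPB1 regions assigned to it.

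SKI, a corepressor of SMAD signalling, kept more regions of one antibody than of the other. Of its 11 WT RPB1 regions 5 stayed, the one at its start with 45.8 in WT and 18.9 in KO, and 6 of its 13 KO RPB1 regions had no WT counterpart. Of its 28 WT phospho-Ser2 regions 26 were missing, and the one past its end stayed, with 7.37 and 8.53. DVL1, a Wnt pathway adaptor, kept 3 of 6 RPB1 and 2 of 12 phospho-Ser2 regions. TNFRSF14, a receptor of the tumour necrosis factor family, kept 1 of 4 RPB1 regions and none of 3 phospho-Ser2 regions. Those assigned to TNFRSF4 of the same family, 3 and 1, all stayed. They lay outside that gene (chr1:1211326-1214153, minus strand), between its start and the far end of SDF4, so which gene they belong to is not known. TNFRSF18 had no WT region, and GABRD, a GABA receptor subunit, had 1 phospho-Ser2 region, which was missing.

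GNB1, the beta subunit of heterotrimeric G proteins, had the largest number of phospho-Ser2 regions. Of 89 in WT, 39 stayed and 50 were missing. Of its 51 KO regions 14 had no WT counterpart, beside 30.1% over the whole KO phospho-Ser2 list. Its RPB1 region at the start stayed, with 54.5 and 35.2. NADK, the NAD kinase, lost 14 of 19 phospho-Ser2 regions.

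Among transcription factor and chromatin genes, where SKI was counted again, 32 of 56 RPB1 and 39 of 51 phospho-Ser2 WT regions were missing (57.1% and 76.5%). Without SKI these were 26 of 45 and 13 of 23 (57.8% and 56.5%). PRDM16, a zinc finger regulator known from brown fat, had the largest number of KO RPB1 regions without a WT counterpart. It had 27 WT RPB1 regions, of which 12 stayed, and 23 KO regions. Of the KO regions 7 had no WT counterpart, beside 25.1% over the whole KO RPB1 list. The strongest of these lay at chr1:3192414-3193258, with a fold enrichment of 12.2. The divergent transcript PRDM16-DT had no WT region and 5 KO RPB1 regions (up to 8.45) and 2 KO phospho-Ser2 regions (up to 4.29). TP73, a relative of the tumour suppressor p53, kept 1 of 7 RPB1 and 4 of 6 phospho-Ser2 regions. NOC2L kept 2 of 6 and 2 of 10, and HES4 4 of 5 and 1 of 2. HES5 had no WT region.

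Among matrix and adhesion genes, 30 of 45 RPB1 and 49 of 56 phospho-Ser2 WT regions were missing (66.7% and 87.5%), of which MEGF6 gave 15 and 24. AGRN, which encodes the basement membrane proteoglycan agrin, kept 10 of 18 RPB1 regions, the strongest with 58.6 in WT and 34.3 in KO, but 3 of 23 phospho-Ser2 regions. MXRA8 kept 2 of 7 and 2 of 5, VWA1 2 of 2 and 2 of 4, and MMP23B, a metalloproteinase, lost both its RPB1 regions. AJAP1 had no WT region.

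Of the mitochondrial genes, 10 of 23 RPB1 and 11 of 29 phospho-Ser2 WT regions were missing (43.5% and 37.9%), all of them at ATAD3A and ATAD3B. MRPL20 lost none of 2 and 3. ATAD3A and ATAD3B, neighbouring AAA ATPases of near-identical sequence whose reads may be shared, kept 5 of 10 RPB1 regions each, and 2 of 8 and 13 of 18 phospho-Ser2 regions. Genes of cell division, RNA processing and ubiquitin transfer had 30 of 54 RPB1 and 25 of 63 phospho-Ser2 WT regions missing (55.6% and 39.7%). Within them UBE2J2, a ubiquitin-conjugating enzyme of the endoplasmic reticulum, lost 16 of 22 RPB1 and 10 of 21 phospho-Ser2 regions, and SSU72, a phosphatase of the polymerase C-terminal repeats, lost 4 of 9 and 4 of 18. CDK11A and CDK11B, near-identical kinases, kept all their RPB1 regions (2 and 1), while CDK11B lost all 4 phospho-Ser2 regions and CDK11A kept its only 1. ISG15, an interferon-induced ubiquitin-like protein, lost 1 of 3 and none of 3, and PEX10 1 of 6 and 2 of 10.

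At the microRNA cluster of MIR200B, MIR200A and MIR429, the WT RPB1 region that covers all 3 hairpins, chr1:1164277-1171206, stayed with a fold enrichment of 23.9 in WT and 8.98 in KO, where 63.7% of its bases were still covered. The KO RPB1 regions left gaps over the mature sequences of MIR200B and MIR200A and covered that of MIR429 (chr1:1168630-1169546), and no KO phospho-Ser2 region covered any of these. The annotation gave that WT RPB1 region to MIR200A. To MIR200B it assigned 9 other WT RPB1 regions, of which 2 stayed, by nearest gene start. None of these was annotated as promoter or covered the hairpin. Of 8 WT phospho-Ser2 regions assigned to MIR200B, 2 stayed. MIR429 had 1 phospho-Ser2 region in each genotype, with 8.73 and 5.56. Over the 8 microRNA genes listed, 36 of 43 RPB1 and 19 of 23 phospho-Ser2 WT regions were missing (83.7% and 82.6%), of which MIR551A alone gave 28 and 11. Of 5 noncoding genes, 14 of 18 RPB1 and 25 of 26 phospho-Ser2 WT regions were missing (77.8% and 96.2%). TP73-AS1 lost all 3 RPB1 and all 4 phospho-Ser2 regions, LINC01134 9 of 10 and 11 of 12, LINC01128 1 of 2 and all 6, and TNFRSF14-AS1 1 of 3 and all 4.

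Other genes with many missing RPB1 regions were CFAP74 with 14 of 21, LRRC47 with 14 of 18, MORN1 with 12 of 14 and MIB2, a ubiquitin ligase, with 11 of 13. At MIB2 the strongest region stayed, with 44.8 in WT and 39.1 in KO. The strongest KO phospho-Ser2 region of the segment, assigned to LRRC47 (chr1:3775041-3782105, fold enrichment 16.4), overlapped a WT region. No WT phospho-Ser2 region assigned to LRRC47 or to neighbouring SMIM1 was as strong, the highest being 7.39, at SMIM1. This KO region was picked for a high KO value, which by itself favours a lower WT value. SDF4 was the gene with the most KO phospho-Ser2 regions without a WT counterpart after GNB1, at 4 of 7. The share over the whole KO phospho-Ser2 list was 30.1%.

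Phospho-Ser2 regions were missing more often under missing RPB1 regions than under staying ones, here and over the whole list. Of 362 missing WT RPB1 regions 209 overlapped a WT phospho-Ser2 region, and at 131 of them (62.7%) all overlapped phospho-Ser2 regions were missing too. Of 214 staying WT RPB1 regions 146 overlapped one, and at 42 (28.8%) all of those were missing. In the whole WT RPB1 list these shares were 28.9% and 14.2%. The 62.7% was close to the 66.0% of all WT phospho-Ser2 members that were missing. At MEGF6 several RPB1 regions overlapped the same long phospho-Ser2 region, so they are not separate cases. Both antibodies used the same 2 cell lines, so the agreement is not independent evidence.

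Within the segment the shares varied along the chromosome. From 1 to 1.5 Mb, 88 of 174 RPB1 and 99 of 183 phospho-Ser2 WT regions were missing (50.6% and 54.1%). From 3.5 to 4 Mb, which includes most of MEGF6, MIR551A and TP73, 81 of 98 and 75 of 98 were missing (82.7% and 76.5%). The last WT RPB1 region inside the bound, chr1:4267032-4269259, stayed with 17.6. It was distal intergenic and assigned to LINC01777, which lies at chr1:4412027-4424689. The first outside the bound was at NPHP4 (chr1:5934045-5934534, 7.58). For WT phospho-Ser2 RPB1 the last inside was also assigned to LINC01777 (3.38) and the first outside to MIR4689 (3.56), both distal intergenic. No WT region of either antibody thus lay near the bound.

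Members were richer in G and C than the rest. The median content was 62.9% in WT RPB1 regions of the segment and 55.3% in the rest, and 57.9% against 44.2% for phospho-Ser2 RPB1. Missing and staying members were alike, at 62.9% and 62.9% for RPB1 and 58.1% and 56.9% for phospho-Ser2 RPB1. Among WT RPB1 regions of 65% or more, 60.7% of 211 members were missing against 30.9% of 7082 others, and among phospho-Ser2 regions 74.0% of 131 against 38.5% of 4355. The part of base composition in these differences was not tested.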

How the data were processed

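ChIP-seq regions of RPB1 and phospho-Ser2 RPB1 were analysed in HepG2 cells of both genotypes, 1 library each. The 2 input libraries are not analysed here. According to the methods, the authors used Trimmomatic, BWA (hg38) and MACS2, with narrow peaks of every library called over its own cells' input. Versions are not given in the sources used here. Strength is a ratio, the fold enrichment the authors' peak caller gave, and q-values were deposited as −log10, with a smallest value of 1.31 in each list after rounding. The authors' differential binding table (log fold changes and p-values) was not used.

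Members were regions of chromosome 1 ending by 5000000. Overlaps (at least 1 bp), 95% Wilson intervals and medians were computed in Python 3.11.15, and the overlap code was tested on simulated lists. Where several KO regions overlapped a WT region, the strongest gave the KO value. With 1 library per group no test was run. Genes are the authors' nearest genes. GENCODE release 44 and RefSeq gave positions and sequences.

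The members, gene lists and markers were chosen with earlier results of these data known. Named genes were MEGF6, PLCH2 and MIR551A, those of the gene lists, the 10 with most missing and up to 5 with most KO regions without a WT region per antibody, and those of the strongest regions. Genes given as neighbours or by their state for both antibodies were named after their values were seen. Some genes and sequences that these rules would name are not reported here. Alternatives were other overlaps, thresholds, bounds, gene assignments and backgrounds.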

Additional observations from a re-analysis of the deposited data

How the results depend on the processing

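No paired analysis was possible because there was 1 library per group and the labels carry no replicate numbers, and for the same reason no replicate could be left out. Of the 42 alternatives computed, 20 moved a value beyond its counting interval, or a number of genes beyond 1.5 times. A reversal of direction was not scored. The cause was not tested. The missing share in the segment became, for RPB1 and phospho-Ser2 RPB1, 81.9% and 83.4% with a reciprocal overlap of at least 50% (59.7% and 74.0% in the rest of the lists) and 45.0% and 49.3% where the WT list alone was held to −log10 q-values from 5 upwards (20.8% and 28.6% in the rest). It was 51.0% and 60.9% for promoter regions only, and for RPB1 55.6% with that threshold in both lists and 58.0% in the first 2.5 Mb. The ratio of KO to WT covered bases, 0.508 and 0.379, was below the ratio of numbers, 0.616 and 0.486. The difference from the rest of the list was 25.0 and 18.3 percentage points. It was 20.1 and 22.9 against the first 5 Mb of other chromosomes, 11.1 for phospho-Ser2 RPB1 against the rest of chromosome 1, and 30.8 and 28.7 within the middle class of fold enrichment. In the strongest RPB1 class it was 6.49. Genes with every WT region missing were 39 and 31 with the reciprocal overlap, and 21 and 20 by the GENCODE assignment, where genes with none missing rose to 35 and 22. Leaving out the longest run of missing regions, an alternative chosen after seeing the data, gave 59.8% and 64.0%, within the counting intervals.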
